A study of Mus musculus with 3 samples.

Results

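The nuclear-encoded subunits of respiratory complex I were followed in mouse liver as a list of 35 genes chosen by symbol and grouped here by their place in the enzyme. Of these, 33 were read by at least 1 probe set (a group of short oligonucleotides matched to 1 gene) that named no other gene, out of 18193 genes read in this way on the array. Ndufa11 and Ndufs6 were read only by probe sets shared with a near-identical gene copy and were not analysed here. The mice were C57BL/6J males fed for 15 weeks from an age of 6 weeks. The Control diet drew 10% of its energy from fat and the HF (high-fat) diet 60%, and the HF+SFC diet was HF to which sodium ferrous citrate, an iron salt, had been added at 0.023% by weight. No transgene, deletion or drug is given for any group. Liver material of all mice of a group (as cDNA, by the study's account) was mixed and read on 1 Affymetrix GeneChip mouse array, so each diet has 1 array and no replicates. There is therefore no test between diets, no p-value is given, and the word higher or lower below describes these 3 arrays.

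Complex I passes electrons from NADH to ubiquinone and pumps protons across the inner mitochondrial membrane. Its peripheral arm carries a flavin and a chain of iron-sulfur (Fe-S) clusters held by core subunits, so that iron is a structural part of the electron path. Its membrane arm contains the proton-pumping core subunits, which are encoded by mitochondrial DNA, and the accessory subunits around both arms hold the enzyme together and are needed for its assembly. Hepatocytes are rich in mitochondria and use the complex to oxidise NADH from fatty acid oxidation. The question the diets pose for this enzyme is whether transcripts of its subunits differed with high-fat feeding and with dietary iron on the same high-fat background.

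Values are MAS5 signals, a background-corrected intensity on a linear scale that the authors scaled to the same trimmed mean on every array, and differences are log2 ratios of signals between arrays. Where a gene had several probe sets, the one with the highest mean log2 signal was read. A gene was kept when that signal was in the upper 50% of all probe sets, that is at 76.9 or more, and 32 of the 33 subunits were kept with mean signals from 3480 to 22299. Because signals of different probe sets do not share a scale, no subunit's level is set against another's. In place of replicate error, the pooled SD of log2 ratios among probe sets of 1 gene was used, taken over 401 genes with probe sets as bright as the kept subunits. This SD was 0.11 for HF over Control, 0.09 for the comparison of HF+SFC with HF and 0.11 for that with Control. It is the probe-set SD meant below unless another is named. Over the 20 subunits with several kept probe sets, dimmer ones included, the SD was wider, at 0.26, 0.14 and 0.22 in the same order. Where a gene's signals are given without group names they follow the order Control, HF, HF+SFC, and a pair of log2 ratios gives HF over Control first and HF+SFC over HF second. The SD covers the disagreement among probes, and it leaves out the spread between mice and whatever is common to all genes of an array. A gene was called different at 1.5-fold, the threshold of the study's own array analysis.

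Hepatocyte markers were bright on each array. Of 10 hepatocyte markers, 9 were read and kept, with summed signals of 427111, 390184 and 399355, and albumin (Alb) had signals of 54077, 50644 and 52202. All 9 were below 0 in HF over Control, with a median log2 ratio of -0.09. In HF+SFC over HF, 8 of the 9 were above 0, with a median of 0.04. For the other liver cells, the summed signal of each marker list was highest on the HF array. Of kept markers, 19 of 20 for macrophages and 13 of 13 for stellate cells were above 0 in HF over Control. None of these was above 0 in HF+SFC over HF, while single markers of the remaining lists ran both ways. The 20 markers of macrophages and Kupffer cells summed to 32028, 42795 and 30697, with 7 of 20 called higher in HF than in Control where 11.3% of all kept genes were, and 9 of 20 called lower in HF+SFC than in HF, where 5.33% were. The 14 markers of stellate cells and matrix summed to 16242, 25229 and 18938. Endothelial markers summed to 11457, 12497 and 11319, with 6 of 10 above 0 in HF over Control. Only 2 of 9 lymphocyte markers were kept, and their list summed to 744, 1337 and 755, of which Ccl5 alone made up 293, 754 and 146. The cholangiocyte markers summed to 352, 410.4 and 314, and among them Sox9 had a log2 ratio of -0.83 in HF over Control. The ratio of signal at the 3′ end to that at the 5′ end of Actb, a measure of RNA integrity, was 1.84, 1.65 and 1.73, that of Gapdh was 0.708, 0.680 and 0.708, and that of Pcx was 4.28, 3.23 and 3.89. The part of these differences in the values of the subunits was not tested, and in mixed liver material fewer hepatocytes cannot be told apart from less transcript per hepatocyte.

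**Figure D1:**
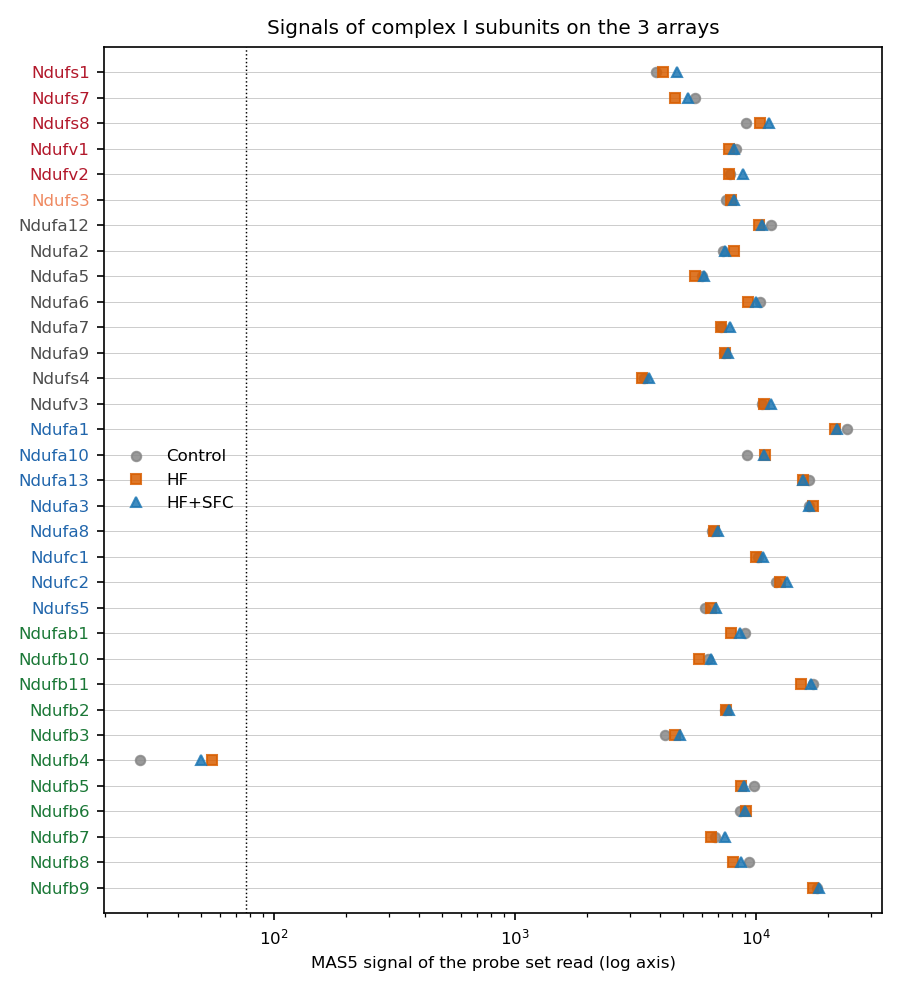
MAS5 signal (log axis) of the probe set read for each of the 33 subunits on the Control, HF and HF+SFC arrays, with gene names coloured by position in the enzyme (red, Fe-S core; orange, other core; grey, peripheral accessory; blue, proximal membrane arm; green, distal membrane arm) and a dotted line at the lowest kept signal of 76.9. The 3 symbols of a gene lie close together for every subunit except Ndufb4, which lies below the line at 27.8 to 55.4.

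The subunit transcripts differed little between the 3 diets. In HF compared with Control, the 33 subunits had a median log2 ratio of -0.01, and 16 were above 0. Of the 32 kept subunits none was called higher and none lower, whereas 11.3% of all 11341 kept genes were called higher and 5.84% lower. Ndufb4, read only by a probe set below the kept level, was past 1.5-fold and is included in the counts over 33 subunits. Without it, 15 of the 32 kept subunits were above 0 in HF over Control, with a median of -0.02. In HF+SFC over HF and in HF+SFC over Control, 28 and 22 of the 32 were above 0. In HF+SFC compared with HF, 28 of 33 subunits were above 0, their median was 0.08, and none was called in either direction, beside 2.88% and 5.33% of kept genes. The ratios of the 32 kept subunits ran from -0.12 in Ndufa2 to 0.20 in Ndufb7. In HF+SFC compared with Control, the median was 0.06, 23 of 33 were above 0 and no kept subunit was called, with Ndufb4 again past 1.5-fold below the kept level, beside 9.2% of kept genes called higher and 6.88% lower. Of all kept genes, 52.1% were above 0 in that comparison. The HF array enters both of the first comparisons and the Control array both the first and the last, so the counts are not independent of each other.

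Genes as bright as the subunits give a closer background, since a smaller share of them was called than of all kept genes. Among the 1458 genes at or above the signal of the dimmest kept subunit, 4.73% were called higher and 4.53% lower in HF than in Control, and 0.274% in each direction between HF+SFC and HF. Between HF+SFC and Control, 4.8% were called higher and 4.12% lower, and 47.7% were above 0. The log2 ratios of the kept subunits had an SD of 0.13 in HF over Control and 0.07 in HF+SFC over HF, and those of the bright genes had an SD of 0.40 and 0.15. The bright genes also give a background for direction. In HF+SFC compared with HF, 66.2% of these bright genes were above 0, against 48.8% of all kept genes. The median of the bright genes was 0.05 in that comparison, and 20 of the 33 subunits were above it. In HF compared with Control, 40.1% of bright genes and 53.1% of all kept genes were above 0, the bright genes had a median of -0.06, and 21 of 33 subunits were above that.

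A looser threshold of 1.2-fold added few subunits. In HF compared with Control, Ndufb4, below the kept level, passed it upward and Ndufs7 downward, beside 28.2% and 20.1% of all kept genes and 14.3% and 19.9% of the bright genes. None of the 33 passed it in HF+SFC compared with HF, beside 12.6% of kept genes higher and 18.4% lower, and 5.08% and 2.06% of the bright genes. In HF+SFC compared with Control, 3 subunits passed it upward and none downward, beside 25.4% and 21% of kept genes and 15.5% and 15.4% of the bright genes. These 3 were Ndufb4, Ndufs8 and Ndufs1, the last pair being Fe-S core subunits with log2 ratios of 0.32 and 0.29. Ndufb4 is below the kept level, and the other 5 probe sets of Ndufs8 lay between 0.07 and 0.16. Ndufs1 had 1 probe set, so its ratio could not be compared with that of another.

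The count of subunits above 0 moved with the scaling of the arrays. For HF+SFC compared with HF it was 28 with the deposited scaling, 23 after quantile scaling, 23 after lowess scaling and 31 after centring each array on its median. For HF compared with Control it was 16, 19, 20 and 6. Centring shifts all genes of an array alike, so it moves this count and cannot move a gene against another. The median of the subunits minus that of the bright genes was 0.05 with deposited, 0.05 with quantile and 0.04 with lowess scaling in HF over Control, and 0.03, 0.02 and 0.04 in HF+SFC over HF.

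**Figure D2:**
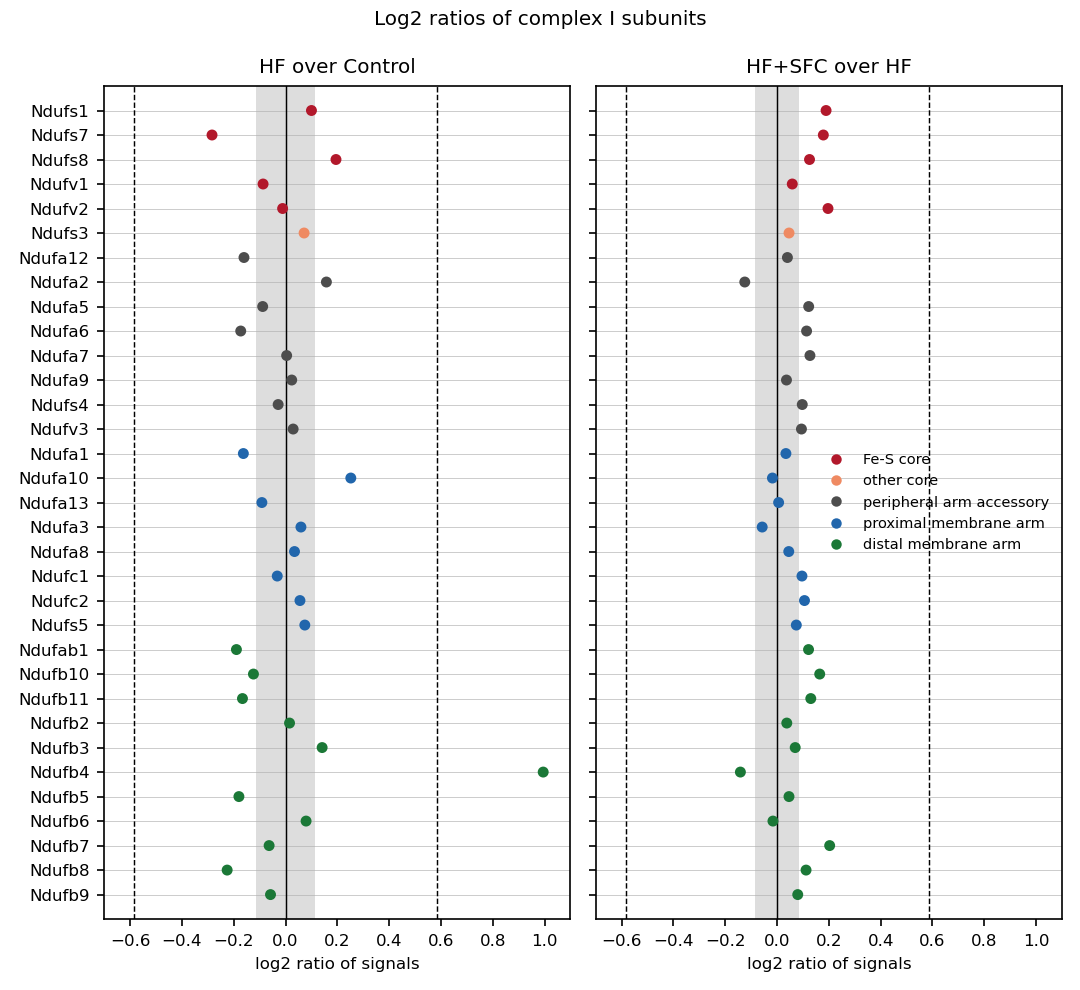
Log2 ratios of the 33 subunits for HF over Control and HF+SFC over HF, 1 point per gene, with the grey band marking 1 probe-set SD either side of 0 (0.11 and 0.09) and dashed lines at 1.5-fold. For HF over Control 19 points lie in the band. For HF+SFC over HF 15 lie in it, 16 lie to its right and 2, Ndufa2 and Ndufb4, to its left.

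The Fe-S core subunits ran the same way in HF+SFC compared with HF. All 5 had a higher signal with HF+SFC than with HF, with a median log2 ratio of 0.18 over a range from 0.06 to 0.20. In HF compared with Control their ratios ran from -0.28 to 0.19 with a median of -0.01. These 5 genes had 15 probe sets, each of them kept, and all 15 were above 0 in HF+SFC over HF, from 0.03 to 0.30. In the same comparison 28 of all 33 subunits, 55 of their 69 kept probe sets and 66.2% of the bright genes were above 0. With quantile or lowess scaling 14 of 15 were above 0, and with the deposited, quantile and lowess scalings all 5 genes were above the median of the bright genes. With the deposited scaling the lowest of them, Ndufv1, was at 0.06, close to that median of 0.05.

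Ndufv2, which carries an Fe-S cluster next to the NADH-oxidising subunit, had signals of 7831, 7769.8 and 8904. The first pair were nearly equal on the probe set read, and the log2 ratio of HF+SFC over HF was 0.20, with 3 probe sets from 0.15 to 0.20. The other probe sets, nearly as bright, gave -0.10 and -0.16 in HF over Control. In HF+SFC over Control they gave 0.05 and 7.5e-05, against 0.19 on the one read. Ndufs1, the large subunit that holds several clusters of the chain, had signals of 3852, 4129 and 4708. It was lowest in Control and highest in HF+SFC, with log2 ratios of 0.10 and 0.19 from 1 probe set.

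Ndufs8, a ferredoxin-like subunit with clusters near the quinone end of the chain, had signals of 9090.4, 10405 and 11348. Its log2 ratios were 0.19 and 0.13. Its 6 probe sets disagreed in the first comparison, where the others ran as low as -0.18, and were all above 0 in the second, from 0.08 to 0.30. Ndufv1, which binds NADH and the flavin, had signals of 8268, 7785 and 8108, and its ratios of -0.09 and 0.06 were both within 1 probe-set SD.

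Ndufs7, which carries the last cluster before ubiquinone, had the lowest ratio of the kept subunits in HF compared with Control. Its signals were 5629 on the Control array, 4623 on the HF array and 5233 on the HF+SFC array. The log2 ratio of HF over Control was -0.28, beyond the probe-set SD of 0.11 and just past the 0.26 of the subunits' own kept probe sets. Its second probe set gave -0.38. In HF+SFC over HF the pair gave 0.18 and 0.13, so that HF+SFC lay between the other diets on this gene. Ndufs3, a core subunit without a cluster, had signals of 7527, 7910.2 and 8167 and ratios of 0.07 and 0.05, both within 1 probe-set SD.

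The promoter of Ndufs7 is shown because this gene had both the lowest kept ratio in HF and an exact motif of the factor YY1, which acts on many genes of mitochondrial proteins. A link between the motif and the ratio was not tested. The other genes with this motif that were read ran from -0.23 in Ndufb8 to 0.06 in Ndufa3 in HF over Control. The 300 bases run from 250 before to 50 after the RefSeq start on the plus strand of mouse build GRCm38.p6, chr10:80249199-80249498, and the motif stands in capitals.
Ndufs7: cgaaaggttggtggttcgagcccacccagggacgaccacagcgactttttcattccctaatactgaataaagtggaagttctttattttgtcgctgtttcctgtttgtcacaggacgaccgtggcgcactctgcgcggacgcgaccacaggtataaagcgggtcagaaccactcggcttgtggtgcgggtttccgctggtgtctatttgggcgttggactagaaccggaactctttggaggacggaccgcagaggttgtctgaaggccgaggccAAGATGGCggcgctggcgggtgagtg

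The accessory subunits of the peripheral arm, 8 of 9 of which were read, had a median log2 ratio of -0.01 in HF over Control with 4 above 0, and of 0.10 in HF+SFC over HF, where 7 were above 0. Ndufs4, which stabilises the NADH-oxidising module and whose loss causes Leigh-like disease, had signals of 3448, 3381 and 3616. Its ratios of -0.03 and 0.10 were near or within the probe-set SD, but a dimmer probe set of the same gene, at a mean signal of 683, gave -0.61 and 0.63, and another, at 459.6, gave 0.44 and -0.03. Ndufa2 was the exception in HF+SFC over HF. Its signals were 7323, 8169.8 and 7493, which gave log2 ratios of 0.16 and -0.12, so that HF was highest.

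Ndufa6, an accessory subunit of the peripheral arm, had signals of 10448, 9268 and 10029, and Ndufa12 had 11566, 10349 and 10639.7. Both were highest in Control and lowest in HF, with ratios for HF over Control of -0.17 and -0.16. All 3 kept probe sets of Ndufa12 were below 0 there. Ndufa5, Ndufa7, Ndufa9 and Ndufv3 lay between -0.09 and 0.03 in HF over Control and between 0.04 and 0.13 in HF+SFC over HF. For Ndufa5 this depended on the probe set, since its second one, at a mean signal of 3137, gave 0.23 and -0.09.

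The proximal membrane arm subunits, 8 of 9 of which were read, had a median of 0.04 in HF+SFC over HF and 6 of them were above 0, and in HF over Control their median was 0.05 with 5 of 8 above 0. Ndufa10, an accessory subunit related to nucleoside kinases, had signals of 9197, 10952.5 and 10818, so that HF and HF+SFC were alike and above Control. Its log2 ratio of 0.25 was the highest of the kept subunits in HF over Control, but its second, dimmer probe set, at a mean signal of 142, gave -0.79. Ndufc2 had signals of 12116, 12593.5 and 13552, with ratios of 0.06 and 0.11. All 4 of its probe sets were above 0 in HF over Control, from 0.06 to 0.70, and it was 1 of only 2 genes with several kept probe sets for which this held.

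Ndufa1, a small membrane protein needed for assembly of the enzyme, had signals of 23852, 21307 and 21817. It was higher in Control than on both high-fat arrays, with ratios of -0.16 and 0.03. Ndufa3 had signals of 16579.8, 17277.5 and 16603, and ratios of 0.06 and -0.06 within the probe-set SD. Its other kept probe set gave the opposite signs, -0.09 and 0.08. Ndufa13, also known as a cell death regulator, had signals of 16687, 15664 and 15729 and ratios of -0.09 and 0.01, and Ndufa8, Ndufc1 and Ndufs5 lay between -0.03 and 0.07 in HF over Control and between 0.05 and 0.10 in HF+SFC over HF.

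The distal membrane arm subunits were more often below 0 than above it in HF over Control, with 4 of 11 above 0 and a median of -0.06. In HF+SFC over HF, 9 of 11 were above 0 and the median was 0.08. These counts include Ndufb4, which is below the kept level, above 0 in the first comparison and below it in the second. Ndufb8, whose protein is widely used as a marker of assembled complex I, had signals of 9429.8, 8066 and 8716, with ratios of -0.23 and 0.11. HF+SFC lay between the other diets on the probe set read, but a dim probe set at a mean signal of 267 gave -0.37 for HF+SFC over HF. Ndufb11 had signals of 17364, 15474 and 16935, with ratios of -0.17 and 0.13. Its 3 probe sets gave -0.21 to -0.16 in the first comparison and 0.13 to 0.18 in the second, so they ran alike.

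Ndufab1, the mitochondrial acyl carrier protein, which also serves fatty acid and Fe-S cluster synthesis, had signals of 9027, 7916 and 8611. Its ratios were -0.19 and 0.12, and its 5 kept probe sets disagreed in both comparisons. Ndufb5 had signals of 9840.0, 8686 and 8968, with ratios of -0.18 and 0.05. Ndufb7, a disulfide-bonded subunit on the intermembrane side, had signals of 6793, 6501 and 7484. Its ratio of 0.20 was the highest of all 33 subunits in HF+SFC over HF, and its second probe set gave 0.32. That second probe set gave -0.36 in HF over Control and -0.03 in HF+SFC over Control, against -0.06 and 0.14 on the one read. The place of HF+SFC relative to Control thus depended on the probe set. Ndufb10 had signals of 6323, 5802 and 6504, and ratios of -0.12 and 0.16, and was therefore also lowest in HF.

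Ndufb3 had signals of 4202, 4634 and 4864, in the order Control, HF and HF+SFC, with ratios of 0.14 and 0.07. Ndufb2, Ndufb6 and Ndufb9 lay between -0.06 and 0.08 in HF over Control and between -0.02 and 0.08 in HF+SFC over HF. The other kept probe set of Ndufb9 gave -0.18 and 0.17. Ndufb4 was the single subunit past 1.5-fold in HF over Control. The only probe set of its own had signals of 27.8, 55.4 and 50.2, all below the kept level of 76.9, and its brighter probe sets are shared with gene copies and were not used. No direction is read from these values, although Ndufb4 is included in the counts over all subunits read.

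Several probe sets per gene show whether direction depended on the choice of probe set, although they share any shift common to a whole array. Of 20 subunits with 2 or more kept probe sets, 10 had all of them above 0 in HF+SFC over HF, none had all of them below 0, and 10 were mixed. The 10 were Ndufv1, Ndufv2, Ndufs7, Ndufs8, Ndufc1, Ndufb2, Ndufb5, Ndufb7, Ndufb9 and Ndufb11. In HF over Control, 9 had all of them below 0, among them Ndufs7, Ndufb8 and Ndufb11, 2 had all of them above 0, and 9 were mixed. Of the 69 kept probe sets, 55 were above 0 in HF+SFC over HF and 27 in HF over Control. Of the bright genes, each by its brightest probe set, 66.2% and 40.1% were above 0 in these comparisons.

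Calls at 1.5-fold lay among dim probe sets, none of them above a mean signal of 683. In HF over Control, 2 of the 75 probe sets of subunits were higher and 5 lower by at least 1.5-fold. By brightness, these were 50% of the 6 that fell below the kept level and 5.8% of the 69 at or above it. In HF+SFC over HF, 2 were higher and 1 lower, and the single kept one was the dimmer Ndufs4 probe set named above.

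**Figure D3:**
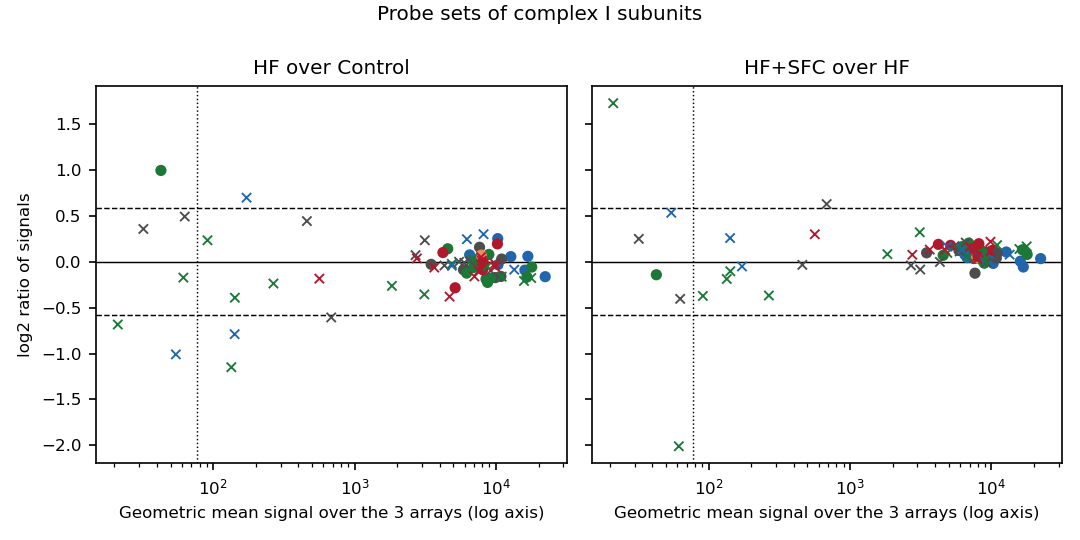
Log2 ratio of each of the 75 probe sets of subunits against its geometric mean signal (log axis), with the probe set read for each gene as a dot and the others as crosses, coloured by position in the enzyme, dashed lines at 1.5-fold and a dotted line at the lowest kept signal of 76.9. Ratios spread widely at low signals and lie between the dashed lines for every probe set read except that of Ndufb4 in HF over Control.

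The assembly factors, proteins that build complex I and are not part of it, were mostly above 0 in HF over Control. Of 20 listed, 19 were kept, 17 of them were above 0 and the median log2 ratio was 0.13, with 2 called higher and none lower. This is 10.5% called higher, near the 11.3% of all kept genes in that comparison. Nubpl, which delivers Fe-S clusters to the enzyme, had signals of 631, 1145 and 1304. It was higher on both high-fat arrays, by 0.86 on the log2 scale in HF over Control, and the ratio of HF+SFC over HF was 0.19. Ndufaf7, a methyltransferase acting on a core subunit, had signals of 305, 510.3 and 519, and its ratios were 0.74 and 0.03. At these signals the probe-set SD is wider, 0.20 and 0.17 over 2354 genes with probe sets in the upper 25% of signal.

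Between HF+SFC and HF, 12 of 19 assembly factors were above 0, their median was 0.03, and none was called. The ends were Acad9, with signals of 711, 769 and 980.3 and a ratio of 0.35, and Tmem186 at -0.32. In HF+SFC compared with Control, 3 were called higher, beside 9.2% of all kept genes, namely Nubpl, Ndufaf7 and Foxred1, which had signals of 371, 470.2 and 563.

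The transcriptional regulators of nuclear respiratory genes had lower signals in HF than in Control for 8 of 10, with a median log2 ratio of -0.26. Of all kept genes, 53.1% were above 0 in that comparison. None of the regulators was called in HF over Control or in HF+SFC over HF. Esrra, the orphan nuclear receptor ERR alpha, had signals of 875, 784 and 982, and was lowest in HF. Nrf1, nuclear respiratory factor 1, had signals of 170.2, 205 and 240.0, and Yy1 had 4320.4, 3668 and 4017. Gabpa, the DNA-binding subunit of the ETS factor GABP, had 2179.9, 2134 and 2234, and Tfam, which packages and transcribes mitochondrial DNA, had 2828, 2336 and 2648. Ppara, the nuclear receptor for fatty acids, had 7231, 5964 and 6308. Esrra, Yy1, Gabpa, Tfam and Ppara were thus each lowest in HF, with ratios of HF+SFC over HF from 0.07 to 0.33. Nrf1, Ppargc1a, Ppargc1b, Pprc1 and Gabpb1 did not have this order. The ratios of Gabpa, -0.03 and 0.07, were within the SD of 0.20 and 0.17 over probe sets in the upper 25% of signal. Ppargc1a, the coactivator PGC-1 alpha, had signals of 424, 584 and 571, and was higher on both high-fat arrays, while its relative Ppargc1b had 1209.6, 992 and 872. Pprc1, a further coactivator of the family, had signals of 323, 235 and 164, and Gabpb1, the partner subunit of Gabpa, had 212, 148 and 126. Pprc1 and Gabpb1 were lowest in HF+SFC and were the 2 regulators called lower in HF+SFC than in Control, with log2 ratios of -0.98 and -0.75, in a comparison where 6.88% of all kept genes were called lower. Both are dim, at mean signals of 232 and 158, and the probe-set SD over all kept probe sets was 0.36 in that comparison. Of the 7 mitochondrially encoded subunits of complex I, 1 was read here, ND5, at 64474, 63399.5 and 61009.

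The subunits of complexes II to V of the respiratory chain were taken beside those of complex I, and 40 of 44 were kept. Their median log2 ratio was -0.07 in HF over Control with 10 of 40 above 0, and it was 0.08 in HF+SFC over HF, where 31 of 40 were above 0. Of the bright genes, 40.1% and 66.2% were above 0 in these comparisons. In complex IV, cytochrome c oxidase, 1 of 12 was above 0 in HF over Control. In complex III, which takes electrons from ubiquinol, all 9 were above 0 in HF+SFC over HF, 4 of them within 1 probe-set SD. Atpif1, the inhibitor of ATP synthase, was the only one called in HF over Control, with signals of 728, 1174 and 1133. That is 2.5% called higher and none lower, beside 11.3% and 5.84% of all kept genes. Uqcr11, a small subunit of complex III, had signals of 12336, 9716 and 11681, and its ratios of -0.34 and 0.27 followed the order seen in Ndufs7, with HF lowest.

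**Figure D4:**
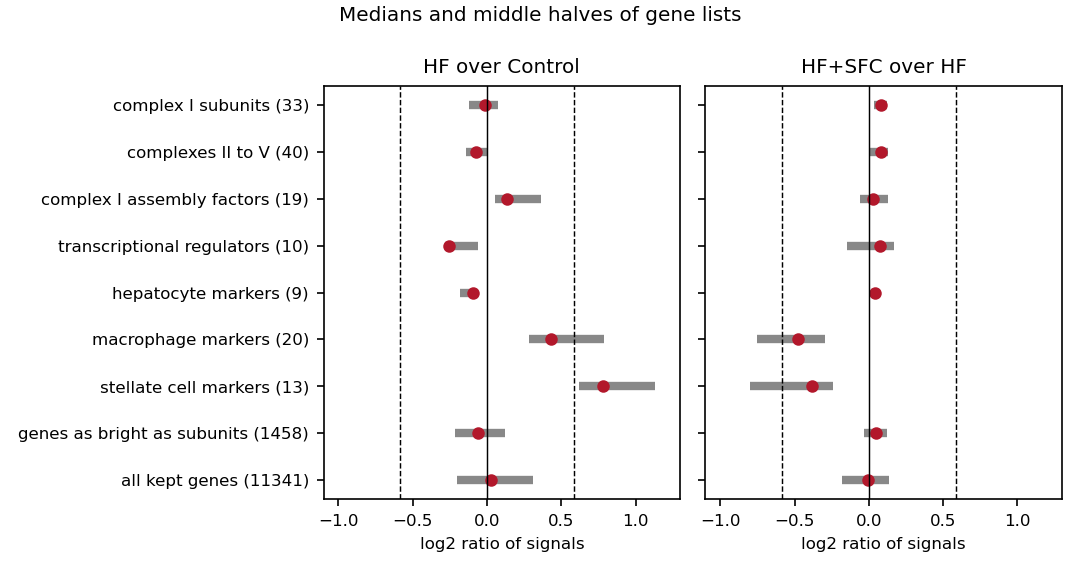
Median log2 ratio (dot) and the range from the 25th to the 75th percentile of genes (bar) for each gene list, with the number of genes read in parentheses and dashed lines at 1.5-fold. The dots of complex I subunits lie at -0.01 and 0.08, those of macrophage markers at 0.43 and -0.47 and those of stellate cell markers at 0.78 and -0.39.

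Sequence shared by the subunits was sought in RefSeq promoters of mouse build GRCm38.p6, 300 bases from 250 before to 50 after the start, which were found for 32 of the 35 genes. Exact motifs were searched on both strands: AAGATGGC for YY1, GCGCATGC for NRF1 and CCGGAAGT for ETS factors such as GABP. AAGATGGC was found in 7 of 32 member promoters, 21.9%, and in 624 of 17491 promoters of protein-coding genes, 3.57%. GCGCATGC was found in 3 member promoters, 9.38% against 3.93%, and CCGGAAGT in 1, 3.13% against 5.69%. A match is a description of these letters and not a bound site. AAGATGGC contains the letters of a start codon, and whether the matches lie on one was not examined.

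All 7 matches to AAGATGGC lay on the strand of the gene and began at positions 23 to 39, counted from 1 at the start. Windows of 30 bases are shown 5′ to 3′ on the strand of the gene, because the likeness in position and letters is plain only from the sequences themselves, with the motif in capitals.
Ndufa3, chr7:3617384-3617413, plus strand: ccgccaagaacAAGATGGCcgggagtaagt
Ndufa9, chr6:126849097-126849126, minus strand: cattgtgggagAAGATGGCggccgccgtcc
Ndufb8, chr19:44555393-44555422, minus strand: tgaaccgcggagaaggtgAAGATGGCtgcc
Ndufc1, chr3:51408915-51408944, minus strand: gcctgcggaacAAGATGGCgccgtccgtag
Ndufs4, chr13:114388045-114388074, minus strand: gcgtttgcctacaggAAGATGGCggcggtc
Ndufs6, chr13:73328433-73328462, minus strand: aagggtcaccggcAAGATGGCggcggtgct
Ndufs7, chr10:80249462-80249491, plus strand: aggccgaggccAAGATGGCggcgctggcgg

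The NRF1 motif, a palindrome-like sequence in many respiratory gene promoters, lay before the start in each of its 3 genes, at position -83 in Ndufa6, -60 in Ndufa11, where matches on both strands overlap, and -8 in Ndufa8. The capitals mark the match, which is the reverse complement in Ndufa6 and Ndufa8.
Ndufa6, chr15:82354356-82354385, minus strand: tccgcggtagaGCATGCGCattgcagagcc
Ndufa11, chr17:56717691-56717720, plus strand: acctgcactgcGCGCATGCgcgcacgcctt
Ndufa8, chr2:36049328-36049357, minus strand: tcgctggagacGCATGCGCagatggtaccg

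The ratios of genes with the YY1 motif differed among themselves. In HF over Control, the 6 of them that were read ran from -0.28 in Ndufs7 to 0.06 in Ndufa3, and in HF+SFC over HF from -0.06 in Ndufa3 to 0.18 in Ndufs7. The place of Ndufa3 depended on the probe set, since its other kept one gave -0.09 and 0.08.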

How the data were processed

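Liver of 3 groups was analysed, with 1 pooled array per group. The deposited values are MAS5 signals (intensity, linear scale), an algorithm that the submitters' processing notes name; the 2% trimmed mean was 500.004 on each array. Of 45101 probe sets, 64 controls were left out; 34945 of the rest named 1 gene in the platform annotation, 932 several and 9160 were not listed there. All 75 probe sets of subunits matched a current RefSeq symbol, and 10 that named a subunit and another gene were not used. No background correction was added to the deposited signals. Each gene was read by its brightest probe set, and log2 ratios between arrays were described by counts, medians and the spread among probe sets, with no test, because mixing and single arrays leave no residual spread between mice. How many mice entered each pool is not used here, and the age in the sample labels differs from that of the feeding schedule and was not used.

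Signals on all arrays were given for the core subunits, the 3 highest and 3 lowest subunits of each comparison and those past 1.5-fold by the gene or by a kept probe set, as well as for all regulators and the mitochondrial gene found, and for assembly factors and complexes II to V past 1.5-fold or at the ends of a comparison; Ndufa6, Ndufa13, Ndufb3, Ndufb10 and Ndufb11 were added after their values were seen. The members and gene lists were chosen with earlier results of these data known. Alternatives were quantile, median and lowess (fraction 0.3) scaling, a pseudocount of 16, medians over probe sets, removal of probe sets with an ambiguous suffix, the upper 25% of signal and 1.2-fold and 2-fold thresholds. Genes as bright as the kept subunits, and kept subunits alone, were added as alternatives after seeing the data. Python 3.11.15, numpy 2.4.6, pandas 2.3.3, scipy 1.17.1, statsmodels 0.14.6 and matplotlib 3.10.9 were used, and the scripts were tested on simulated data.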

Additional observations from a re-analysis of the deposited data

How the results depend on the processing

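With 1 array per diet no replicate could be left out, the precision is limited by the number of arrays, and the causes of the changes below were not tested. The near-zero medians changed sign with the scaling. The HF over Control median became 0.05 for the subunits and for the Fe-S core with quantile scaling (0.0543) and with lowess scaling (0.0530), 0.0184 and 0.0353 for the peripheral accessory subunits, and 0.00434 and 0.00737 for complexes II to V, while the HF+SFC over HF median of the proximal membrane arm became -0.0167 and -0.00884. Centring on array medians, which moved the median of all kept genes to -0.07 and 0.11 in the comparisons of HF with Control and of HF+SFC with HF, left 6 subunits above 0 in HF over Control, where the proximal arm was at -0.0495. It raised the HF+SFC over HF medians to 0.197 for the subunits and the distal arm, 0.296 for the Fe-S core, 0.213 for peripheral accessory subunits, 0.157 for the proximal arm and 0.20 for complexes II to V. With the median over all or over kept probe sets of a gene, HF over Control became 0.0266 or 0.0141 for the peripheral accessory subunits and -0.0620 or -0.0255 for the proximal arm, and HF+SFC over Control became 0.0505 for the Fe-S core in both, and -0.0141 for complexes II to V with all probe sets. Without probe sets of ambiguous suffix, peripheral accessory subunits were at 0.0239 in HF over Control, the distal arm at -0.0224 and complexes II to V at -0.00799 in HF+SFC over Control, and 1 subunit (Ndufb2, by a dim probe set) was called lower in HF+SFC than in HF and 2 lower than in Control. No subunit was called higher (0 in HF over Control, 0 in HF+SFC over Control) with kept probe sets only, in the upper 25% or upper 50% of signal, or at 2-fold. At 1.2-fold, 1 was lower in HF over Control and 3 higher in HF+SFC over Control. Of 156 values of the 18 named subunits per comparison, 17, 31 and 22 moved by more than 1 probe-set SD in HF over Control, HF+SFC over HF and HF+SFC over Control.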
